A study of Homo sapiens with 72 samples.

Results

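The genes described here are 35 genes of the ATF4 branch of the integrated stress response. They were taken by their symbols from a list chosen with earlier results of these data known. Each was found once in all 11 of the authors' tables, among 61541 genes. ATF4 is a transcription factor whose mRNA is held back by upstream reading frames and is translated when the initiation factor eIF2 is phosphorylated. Kinases for viral RNA, unfolded protein, amino acid shortage and haem shortage phosphorylate eIF2, and arsenite is a classical trigger. ATF4 then turns on genes for amino acid uptake and synthesis, further transcription factors and inhibitors that end the response. The same phosphorylation stalls translation and lets stress granules form, bodies of mRNA and protein that G3BP1 and its paralog G3BP2 assemble.

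RNA immunoprecipitation with sequencing (RIP-seq) set 3 immunoprecipitate (IP) libraries against 3 libraries of input RNA from FlpIn 293 Trex cells, an embryonic kidney line with stable FLAG-G3BP1 induced by 1 ug/mL tetracycline for 24 h in both groups. The first RNA-seq experiment in U2OS cells, a bone osteosarcoma line, had untreated wild-type cells, untreated G3BP1/2 knockout cells, and knockout cells 24 h after Lipofectamine transfection of a G3BP1 transgene. The second had 6 groups, all of G3BP1/2 knockout U2OS cells: knockout cells as such, knockout cells transfected for 24 h with wild-type (WT) G3BP1, and knockout cells transfected for 24 h with an NTF2 deletion mutant of G3BP1, each without or with 200 uM sodium arsenite for 2 h. The NTF2-like domain is the part through which G3BP1 pairs with itself. Each U2OS group had 2 libraries. No mock-transfected group was used, so transfection itself and the transgene cannot be told apart, and the sources used here do not say whether the knockout line is 1 clone. Nothing says that the libraries of a group came from separate cultures, so p-values measure the spread between these libraries, which may be technical. In bulk RNA, fewer cells of a kind and less RNA per cell cannot be told apart.

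Reads in genes, in units of 1e6, ran from 38.59 to 52.47 per library in the first experiment and from 10.79 to 27.76 in the second, and the RIP table averaged 12.17 normalised reads in that unit. The check of the labels was G3BP1 itself. Its normalised reads were 12628 and 12603 in knockout and 19023 and 18087 in wild-type cells of the first experiment, so the knockout kept much of the transcript, and a transcript level does not show whether protein is made. With the transgene, they were 20087 and 20375 in the first experiment. In the second they rose from 3815 and 3884 in knockout cells to 621709 and 591137 with WT G3BP1 and 839200 and 804718 with the NTF2 deletion mutant. The rescues of the 2 experiments therefore differ widely in G3BP1 mRNA. Of 7 markers of the bone lineage, COL1A1, SPARC, SPP1, RUNX2 and ALPL had base means of 388 to 87400 in U2OS cells and COL1A2 and BGLAP of 17.5 and 8.76, in the authors' deposited table of knockout against wild type. They moved in both directions in that deposited table of the authors: COL1A1 (-2.73), RUNX2 (-1.38) and SPARC (-0.14) were lower in the knockout, SPP1 (3.96) and ALPL (3.49) higher. With WT G3BP1 against the knockout of the second experiment, COL1A1 (-1.56), RUNX2 (-1.24) and SPARC (-1.21) were lower in the authors' deposited table. There ALPL (0.55) was higher, SPP1 (-0.30) and COL1A2 (0.44) were not called, and BGLAP had no adjusted p. In knockout against rescue of the first experiment, COL1A1 (-1.64), RUNX2 (-0.79) and SPP1 (-0.57) were lower in the knockout, in the authors' deposited table. SPARC (0.47) and ALPL (1.18) were higher there, and COL1A2 (-0.62) and BGLAP (0.24) were not called. Base means of the leukocyte, hepatocyte and endothelial markers PTPRC, ALB, PECAM1 and CDH5 were 21.3 or lower in the authors' deposited table of knockout against wild type. Those of the epithelial markers EPCAM and CDH1 were 453 and 27.9 there. PTPRC, at 21.3, had a log2 fold change of -2.34 in knockout against wild-type cells, in the authors' deposited table. Of the markers of 293 cells, PAX2 (-2.25) and NEFL (-0.62) were lower there, LHX1 (0.90) was higher and NEFM (0.04) was not called. The part of these marker shifts in the members' results was not tested. In the RIP table of FlpIn 293 Trex cells, NEFL had a base mean of 1080, PAX2 of 45.8, LHX1 of 36.9 and NEFM of 4.87, per the authors' deposited table. In U2OS cells they were 3820, 146, 307 and 12.3 in the authors' deposited table of knockout against wild type. That comparison averaged 44.22 normalised reads in units of 1e6, against 12.17 in RIP. These markers of 293 cells therefore do not set the 2 lines apart. The bone markers COL1A1, SPARC, SPP1, RUNX2 and ALPL did differ, with base means of 2.61 to 69.0 in the authors' deposited RIP table. COL1A2 and BGLAP were at 0.0 and 2.83 there.

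Some members share promoter letters that C/EBP and ATF factors are known to bind together, and the windows of all members that carry them are shown, since they let these genes be compared letter by letter. RefSeq promoters (GRCh38.p14, 250 bases before to 50 after a start) were found for 30 of the 35 members. The letters TGATGNAA, on either strand, stood in a promoter of 10 of these 30 members (33.3%), against 4.46% of 27305 genes, and in 10 of the members' 46 promoters (21.7%) against 3.62% of 35116 promoters. The cyclic AMP response element TGACGTCA, which shares the letters TGA with it, stood in the promoter of 1 member, PPP1R15A, and in 1.85% of all promoters. A match is a description of letters and not a measured binding site. The windows below run 5′ to 3′ in the direction of the gene, with the matching letters in capitals. Of the 10 carriers of TGATGNAA, CHAC1, ASNS, SLC3A2 and PPP1R15B rose with arsenite in knockout cells, SLC1A5, SLC1A4 and SLC7A1 fell, CEBPG and JDP2 were not called, and FGF21 had no adjusted p, in the authors' deposited table.
CHAC1, chr15:40953251-40953280, + strand: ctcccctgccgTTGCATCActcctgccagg
ASNS, chr7:97872458-97872487, - strand: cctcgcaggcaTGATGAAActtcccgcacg
SLC3A2, chr11:62881725-62881748, + strand: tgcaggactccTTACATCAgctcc
PPP1R15B, chr1:204412026-204412055, - strand: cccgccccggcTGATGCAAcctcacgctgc
CEBPG, chr19:33374060-33374089, + strand: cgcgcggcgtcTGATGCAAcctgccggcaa
JDP2, chr14:75427995-75428024, + strand: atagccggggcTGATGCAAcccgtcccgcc
FGF21, chr19:48755459-48755488, + strand: aaacaccaggaTTGCATCAgggaggaggag
SLC1A5, chr19:46784893-46784922, - strand: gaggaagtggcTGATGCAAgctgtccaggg
SLC1A4, chr2:64989381-64989410, + strand: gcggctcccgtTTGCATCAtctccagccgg
SLC7A1, chr13:29595663-29595692, - strand: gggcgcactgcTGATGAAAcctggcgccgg
PPP1R15A, chr19:48872352-48872381, + strand: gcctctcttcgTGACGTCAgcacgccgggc
The same TGATGCAA letters thus stand 16 bases before the start of JDP2, 42 before that of CEBPG, 97 before that of SLC1A5 and 227 before that of PPP1R15B. In CHAC1, FGF21 and SLC1A4 their reverse complement, TTGCATCA, begins 209, 54 and 7 bases before the start.

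The first question was which of these mRNAs were higher in the G3BP1 IP than in input. No control IP was used, so association with G3BP1 and background capture cannot be told apart. In the authors' deposited table of IP against input, 18 of the 35 members were higher in the IP and 9 lower at an adjusted p under 0.05. Of all 22856 genes tested, 24.7% were higher and 31.4% lower. These shares, and those of all genes in the other deposited tables of the authors, include genes with few reads. The median log2 fold change of the members was 0.37 and that of all tested genes -0.26, while genes with base means of at least 100 had a median of 0.12. The roles differed. Of the 9 genes of serine, glycine, one-carbon and amino acid metabolism, 7 were higher and 2 lower, with a median of 1.65. Of the 8 amino acid transporters and tRNA export factors, 1 was higher and 4 were lower, with a median of -0.38.

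ATF4 was higher in the IP by 1.78 ± 0.09 (SE, 3 libraries against 3, adjusted p = 6.01e-91 in the authors' deposited table). All 3 enzymes of serine synthesis were higher in the IP: PHGDH, which starts the pathway from glycolysis, by 2.03 ± 0.18, PSAT1, its aminotransferase, by 1.87 ± 0.18, and PSPH, which releases serine, by 1.90 ± 0.14, in the authors' deposited table. SHMT2 and MTHFD2, which carry the serine carbon into mitochondrial folate, were at 1.66 ± 0.19 and 1.17 ± 0.15 in that deposited table of the authors. The 2 metabolic genes that were lower were ALDH1L2, a mitochondrial folate dehydrogenase, at -1.47 ± 0.38, and ASNS, asparagine synthetase, at -1.60 ± 0.41, in the authors' deposited table. ASNS values are uncertain throughout, because the gene overlaps the read-through gene CZ1P-ASNS in RefSeq and its pseudogene ASNSP1 had a base mean of up to 105, against 33.7 to 160.1 for ASNS in the authors' deposited tables.

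Of the transcription factors, 4 of 7 were higher and none was lower in the IP. DDIT3 (CHOP), which promotes death under lasting stress, was at 1.10 ± 0.21 in the authors' deposited table (adjusted p = 8.57e-07). TRIB3, a pseudokinase that restrains ATF4, was at 1.82 ± 0.17, and CHAC1, which degrades glutathione, at 1.37 ± 0.35, in the authors' deposited table. FGF21, a secreted metabolic hormone, reached 2.03 but with an SE of 0.76 and an adjusted p of 0.0143 in the authors' deposited table. SLC7A1, the cationic amino acid transporter, had the lowest value of all members at -2.43 ± 0.11 (adjusted p = 2.01e-104, authors' deposited table). VLDLR, a lipoprotein receptor, was at -1.61 ± 0.23 and VEGFA, a vessel growth factor, at -0.75 ± 0.14 in the authors' deposited table. The chains of the large neutral amino acid transporter had opposite signs, with SLC7A5, the light chain, at -0.63 ± 0.10 and SLC3A2, the heavy chain, at 0.85 ± 0.16 in the authors' deposited table. The 2 subunits that bring protein phosphatase 1 to eIF2 were PPP1R15B, the constitutive one, at -0.64 ± 0.13, and PPP1R15A (GADD34), the inducible one, at 0.19 ± 0.15, which was not called (authors' deposited table, adjusted p = 0.282).

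**Figure D1:**
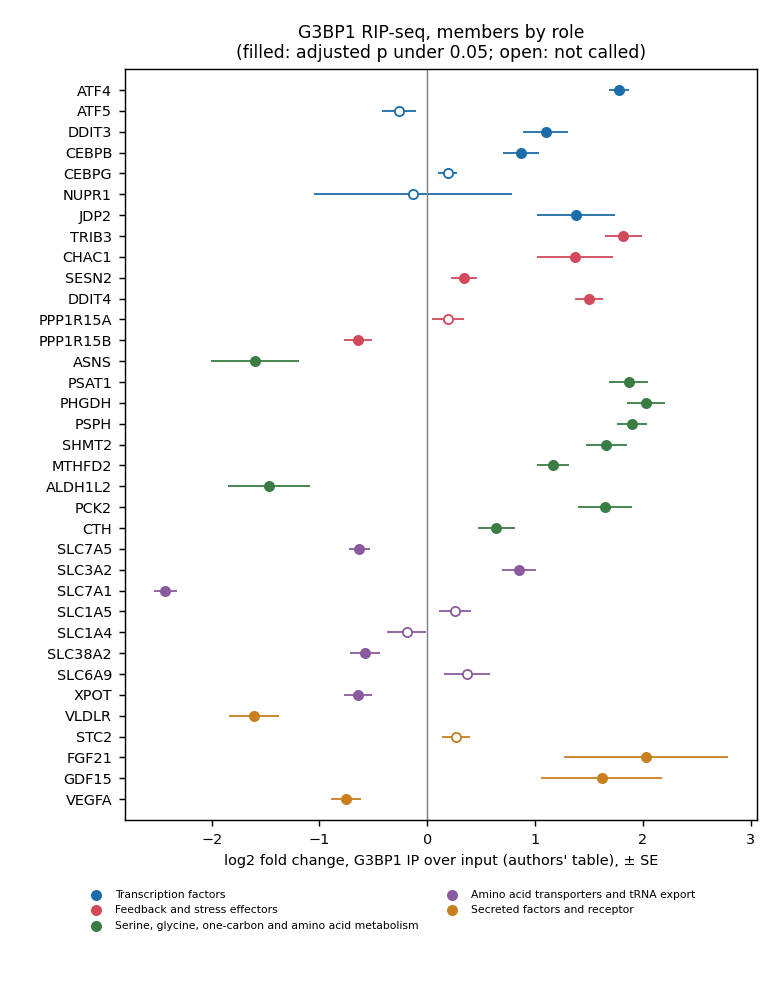
Log2 fold change of each member in the authors' deposited table of G3BP1 IP over input, with its SE (3 libraries against 3), coloured by role and filled where called. ATF4 (1.78) and the serine synthesis genes PHGDH, PSAT1 and PSPH (1.87 to 2.03) lie at the right, SLC7A1 (-2.43) at the far left.

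The first RNA-seq experiment asked what loss of G3BP1 and G3BP2 does to unstressed cells. In the authors' deposited table of knockout against wild type, 6 of 35 members were higher and 15 lower, against 18.4% higher and 19.4% lower of all 25724 genes tested. A limma fit on reads solved from the base means called 29.1% higher and 30.0% lower of 20655 genes with a mean of at least 10. The members' median log2 fold change was -0.18, against 0.01 over all tested genes, in the authors' deposited table. By role, 3 of 7 transcription factors were lower and 1 higher, and 4 of 6 feedback genes were lower and 1 higher. Of 5 secreted factors and receptors, 2 were lower and 0 higher. Of 9 metabolic genes 3 were lower and 2 higher, with a median of -0.18. Among 8 transporters and export factors 3 were lower and 2 higher, with a median of 0.03.

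ATF4 normalised reads were 6848 and 6678 in knockout and 10573 and 10448 in wild-type cells. Both knockout libraries were below both wild-type libraries, as they were for 38.5% of 20718 genes whose base mean reached 10. The log2 fold change of ATF4 was -0.64 ± 0.05 (adjusted p = 1.29e-33, authors' deposited table). MTHFD2 stood at 5444 and 5548 in knockout and 11277 and 10912 in wild-type cells, a change of -1.01 ± 0.05 in the authors' deposited table. The secreted stress hormone GDF15 was lower by a log2 fold change of -0.95 ± 0.21 in the authors' deposited table, from 270 and 328 reads in wild-type to 145 and 154 in knockout cells. ALDH1L2 (-0.86 ± 0.17), VLDLR (-0.79 ± 0.09) and JDP2, a repressor of AP-1 and CHOP promoters (-0.79 ± 0.10), completed the 5 lowest members of the authors' deposited table. CHAC1 was lower at -0.77 ± 0.21 in the authors' deposited table.

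Against this trend NUPR1, a small stress-induced chromatin protein, rose from 138 and 134 reads in wild-type to 643 and 579 in knockout cells, a log2 fold change of 2.08 ± 0.18 (adjusted p = 4e-31, authors' deposited table). The other members that were higher were CTH, which makes cysteine (0.76), the neutral amino acid transporter SLC1A4 (0.46), PPP1R15B (0.22), PHGDH (0.21) and SLC7A5 (0.18), in the authors' deposited table. The SLC7A5 call was lost without 1 library (limma, adjusted p of up to 0.0909). No call was made for DDIT3 (-0.10 ± 0.19), TRIB3 (-0.06 ± 0.12) or ASNS (-0.32 ± 0.26) in that deposited table of the authors. DDIT3 reads overlapped between the groups, at 328 and 298 in knockout and 291 and 381 in wild-type cells. Without the wild-type library that had 381 DDIT3 reads, a limma fit on reads solved from the base means gave 0.11 for DDIT3, 0.03 for ASNS and 0.05 for TRIB3, none of them called. Without the other wild-type library, ASNS was called lower at -0.63 (limma, adjusted p = 0.00499).

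With the G3BP1 transgene, some members stood between knockout and wild type and others outside both. Knockout against rescue gave 8 members higher and 15 lower in knockout cells, of 34 tested, against 16.1% and 21.5% of all 22945 genes in the authors' deposited table. ATF4 reached 9041 and 9750 reads in the rescue, between knockout and wild type. The knockout stood below the rescue by a log2 fold change of -0.48 ± 0.05 in the authors' deposited table (adjusted p = 9.99e-19). MTHFD2 reached 9917 and 10004 reads, and the knockout stood at -0.87 ± 0.05 against the rescue in the authors' deposited table. ATF5, a close relative of ATF4, was also lower in the knockout (-0.69 ± 0.08), as were GDF15 (-0.54 ± 0.20), DDIT3 (-0.52 ± 0.15) and TRIB3 (-0.47 ± 0.10), in the authors' deposited table. The members highest in the knockout against the rescue were SLC1A4 (0.90), NUPR1 (0.69), the glycine transporter SLC6A9 (0.67), CTH (0.63) and VLDLR (0.58) in the authors' deposited table. CHAC1 (-0.11 ± 0.21) and ASNS (0.38 ± 0.24) were not called in that deposited table of the authors.

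With the transgene, other members stood above or below both knockout and wild type. PPP1R15A had 772 and 729 reads in knockout, 1195 and 1270 in wild-type and 1519 and 1501 in rescued cells, and the rescued libraries were the highest. CEBPB, a C/EBP factor of inflammation and differentiation, had 1511 and 1466 reads in knockout, 1368 and 1184 in wild-type and 2556 and 2522 in rescued cells. Wild type against rescue was -0.99 ± 0.09 for CEBPB in the authors' deposited table. VLDLR, like CEBPB, moved away from wild type with the transgene. It had 2798 and 2629 reads in wild-type, 1702 and 1411 in knockout, and 976 and 1075 in rescued cells. Wild type stood above the rescue by 1.35 ± 0.08 for VLDLR in the authors' deposited table. NUPR1 came down partway, to 385 and 350 reads. Among all members, wild type against rescue left 13 higher and 9 lower in wild-type cells of 35 tested, with 15.2% and 20.4% of all genes in the authors' deposited table. ALDH1L2 (0.71), DDIT4, an mTORC1 inhibitor (0.70), JDP2 (0.67), ASNS (0.63), CHAC1 (0.60) and ATF4 (0.14) were among the higher ones in the authors' deposited table. NUPR1 (-1.30), TRIB3 (-0.42), DDIT3 (-0.42) and SHMT2 (-0.38) were among the lower ones in the authors' deposited table. In limma, leaving out 1 library ended the calls of ATF4 (0.11, adjusted p = 0.142, without the rescue library at 9041 ATF4 reads), DDIT3 (-0.25, 0.132, without the wild-type library at 291 DDIT3 reads) and ASNS (0.44, 0.115, without the other wild-type library), and the DDIT3 call was also lost with median centring (adjusted p = 0.0503). The 3 comparisons of this experiment share their libraries.

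**Figure D2:**
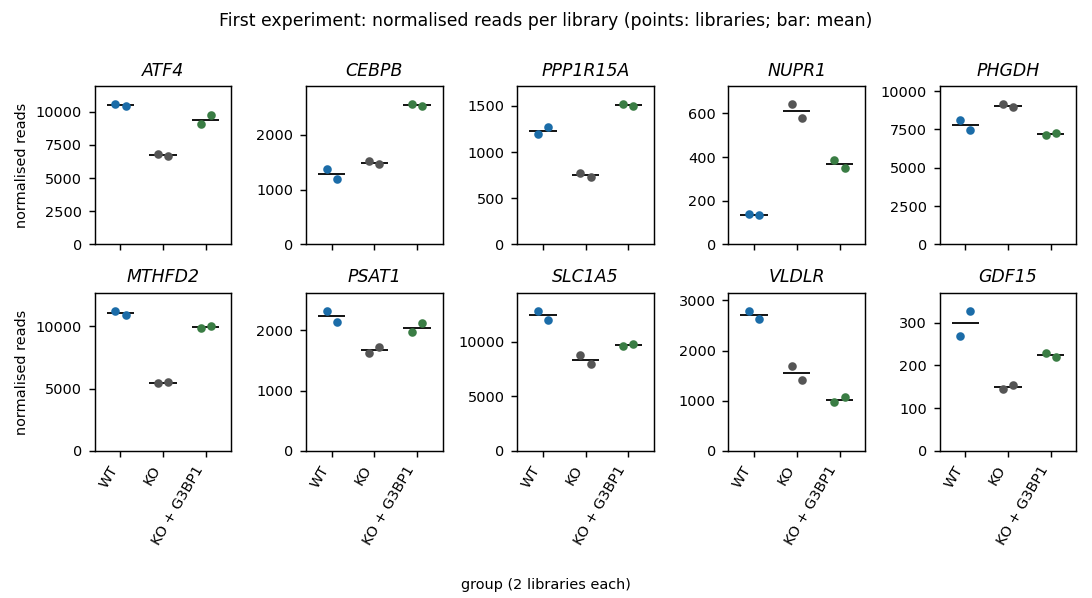
Normalised reads of 10 members in each library of the first experiment, for wild-type (WT), G3BP1/2 knockout (KO) and knockout cells with the G3BP1 transgene, with points for the 2 libraries and bars for their mean. ATF4, MTHFD2 and PPP1R15A are lowest in the knockout, NUPR1 is highest there, and VLDLR is lowest with the transgene.

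In the second experiment, unstressed knockout cells with WT G3BP1 had more ATF4 mRNA than knockout cells alone, and the other members divided. Of 7 transcription factors 4 were higher and 2, JDP2 and NUPR1, lower, and of 6 feedback genes 3 were higher (PPP1R15A, TRIB3 and SESN2) and the others not called, in the authors' deposited table. In the authors' deposited table of WT rescue against knockout, 16 of 34 members tested were higher and 7 lower, against 23.0% and 19.1% of all 20738 genes. For this comparison limma called 35.3% higher and 31.7% lower of 16654 genes with a mean of at least 10. The median log2 fold change was 0.37 over members and -0.03 over all tested genes. With the NTF2 deletion mutant, 17 were higher and 8 lower of 34, against 22.8% and 18.7% of all genes in the authors' deposited table. Both tables share the knockout libraries. Genes with base means of at least 100 had median log2 fold changes of 0.176 and 0.165 in these deposited tables of the authors.

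PPP1R15A had the largest rise. It went from 354 and 328 normalised reads in knockout cells to 2528 and 2467 with WT G3BP1 and 2121 and 2135 with the NTF2 deletion mutant. The log2 fold changes were 2.87 ± 0.10 and 2.64 ± 0.11 in the authors' deposited tables (1.71e-168 and 1.91e-129 as adjusted p). DDIT3 went from 87.1 and 90 reads to 327 and 316 with WT G3BP1, and to 290 and 273 with the mutant. Its log2 fold changes were 1.81 ± 0.23 and 1.62 ± 0.23 in the authors' deposited tables. CEBPB (1.76 ± 0.13 and 1.59 ± 0.12) and TRIB3 (1.49 ± 0.15 and 1.39 ± 0.15) rose likewise in the authors' deposited tables. ATF4 itself rose less, from 1676 and 1749 reads to 3369 and 3321 with WT G3BP1 and 3413 and 3296 with the mutant. That was 0.98 ± 0.07 and 0.99 ± 0.08 on the log2 scale in the authors' deposited tables.

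The amino acid transporters divided into those that rose and those that fell. SLC7A5 rose from 6379 and 6603 reads to 20388 and 20290 with WT G3BP1, by 1.67 ± 0.04 on the log2 scale in the authors' deposited table. SLC3A2, its heavy chain, rose from 2476 and 2587 to 7072 and 7122 reads, by 1.51 ± 0.06 in the authors' deposited table. SLC7A1, the glutamine transporter SLC1A5 and the tRNA exporter XPOT also rose, by 1.06, 1.05 and 0.94 in the authors' deposited table. The other 3 of the 8 fell: SLC1A4 (-1.19 ± 0.11), SLC6A9 (-1.21 ± 0.15) and the glutamine and alanine carrier SLC38A2 (-0.91 ± 0.06), in the authors' deposited table. With the mutant, the same 5 were called higher and the same 3 lower in the authors' deposited table, with SLC1A4 at -1.32 ± 0.10.

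Among metabolic genes, MTHFD2, SHMT2 and PSPH rose and PHGDH fell in both rescues, and the other 5 of 9 were not called in either. PHGDH went from 3352 and 3739 reads to 1934 and 1877 with WT G3BP1 (-0.87 ± 0.08, authors' deposited table), while PSPH of the same pathway rose and PSAT1 was not called. VLDLR fell from 659 and 653 reads to 183 and 149 with WT G3BP1 and 165 and 162 with the mutant. Its log2 fold changes were -1.92 ± 0.17 and -1.94 ± 0.17 in the authors' deposited tables. JDP2 (-1.62 ± 0.22 and -1.82 ± 0.23) and NUPR1 (-1.12 ± 0.23 and -1.26 ± 0.23) fell as well in the authors' deposited tables. DDIT4 was lower with the mutant (-1.31 ± 0.27) and not called with WT G3BP1 (-0.31 ± 0.24) in the authors' deposited tables. ASNS was not called with either transgene (-0.07 ± 0.41 and 0.06 ± 0.40, authors' deposited tables). CHAC1 missed the threshold with WT G3BP1 (0.77 ± 0.38, adjusted p = 0.0951) and passed it with the mutant (0.88 ± 0.37, adjusted p = 0.0424) in the authors' deposited tables. The call with the mutant was lost with median centring (adjusted p = 0.112) and with no filter on low base means (adjusted p = 0.0673), and CHAC1 was called with WT G3BP1 in limma (0.84, adjusted p = 0.00401) but not without the knockout library at 38.1 CHAC1 reads (0.74, adjusted p = 0.0513). The 2 CHAC1 values differed by -0.11 ± 0.53, with an adjusted p of 1.0 (normal test of the difference, Benjamini-Hochberg).

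The first and second experiment share no library, so the rescue can be set side by side. Of 34 members tested in both, 19 (55.9%) were called in both, against 28.2% of all 20402 genes tested in both. The latter share includes genes with few reads. All 19 members went the same way, 13 higher and 6 lower in rescued cells, where 88.6% of the 5757 genes called in both did. The sizes differed: PPP1R15A was at 1.00 in the first and 2.87 in the second experiment, SLC3A2 at 0.18 and 1.51, and MTHFD2 at 0.87 and 1.05, rescue over knockout in the authors' deposited tables. The SLC3A2 call of the first experiment was lost without 1 library (limma, adjusted p of up to 0.0792). The level of transgene mRNA differed between the experiments too, and its part in these sizes was not tested.

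No member differed between WT and NTF2 deletion rescue in unstressed cells by the test of the difference, against 0.0% higher and 0.0185% lower of all 16210 genes, with 3 members at an unadjusted p under 0.05. Both inputs share the knockout libraries, which makes the SE of this test too large. A limma-voom fit on reads solved from the base means compared the rescues directly and called 4 members higher and 0 lower with WT G3BP1, against 0.793% and 0.324% of all genes, with 8 members at an unadjusted p under 0.05. They were DDIT4, SESN2, a sestrin that also restrains mTORC1, PPP1R15A and SLC7A5. DDIT4 had 160 and 191 reads with WT G3BP1 and 92.2 and 75.9 with the mutant, a difference of 1.05 ± 0.19 (limma, adjusted p = 0.000707). SESN2 had 591 and 583 reads with WT G3BP1 and 431 and 336 with the mutant, a difference of 0.62 ± 0.10 (limma, adjusted p = 0.000104). PPP1R15A and SLC7A5 differed by 0.23 ± 0.06 and 0.14 ± 0.03 (limma, adjusted p = 0.0217 and 0.0268). Leaving out 1 library at a time left between 1 and 2 members called, and the largest adjusted p was then 0.0601 for DDIT4, 0.0496 for SESN2, 0.304 for PPP1R15A and 0.323 for SLC7A5 (limma).

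**Figure D3:**
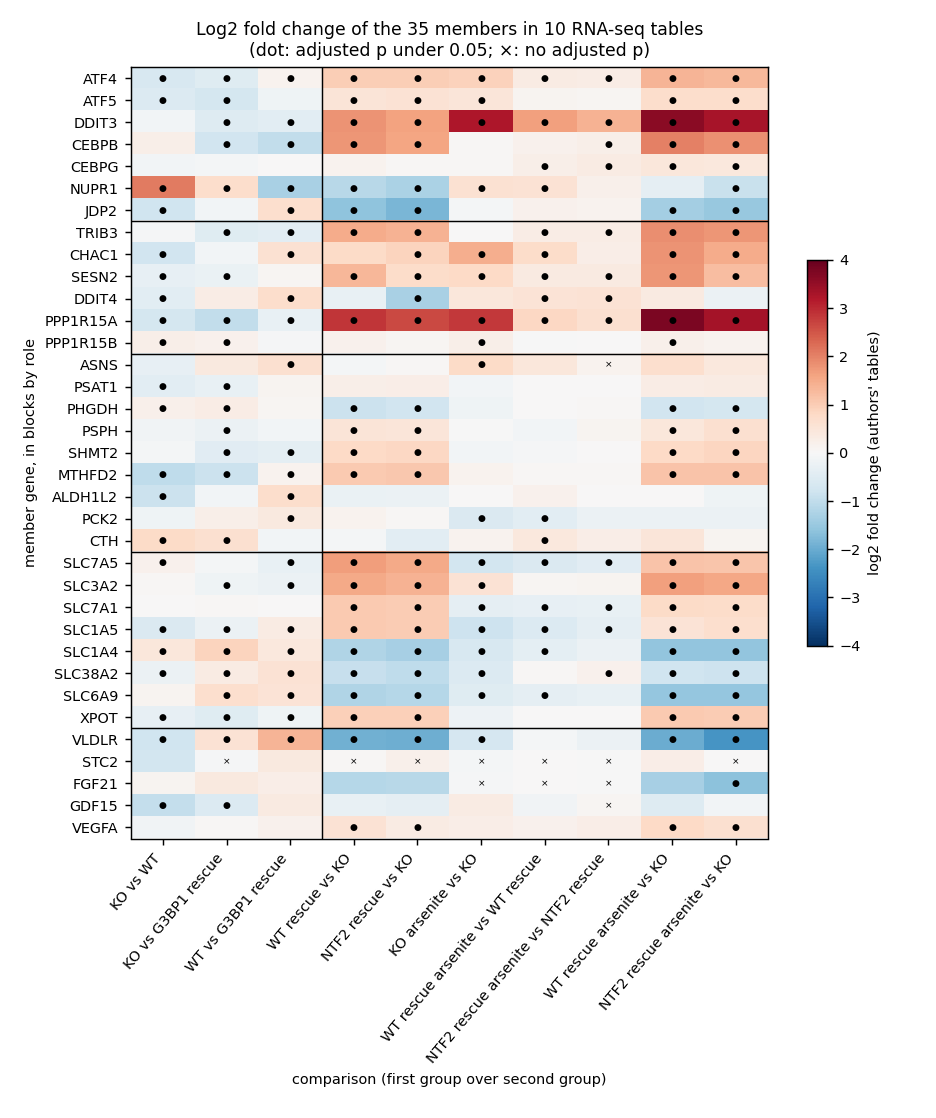
Log2 fold change of the 35 members (rows, in blocks by role) in the authors' 10 deposited RNA-seq tables (columns, first group over second), red for higher and blue for lower, with a dot where called. PPP1R15A, DDIT3 and TRIB3 are red and VLDLR and JDP2 blue in all 4 columns of rescued against knockout cells of the second experiment.

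Arsenite in knockout cells raised ATF4, DDIT3, PPP1R15A and CHAC1 and lowered most of the transporters. In the authors' deposited table, 10 of 33 members tested were higher and 8 lower after 2 h, against 8.56% and 10.9% of all 15497 genes. Of 7 transcription factors 4 were higher, and of 6 feedback genes 4, with none lower. Of 8 transporters and export factors, 1 was higher and 6 were lower. Of 9 metabolic genes, 1 was higher and 1 lower.

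DDIT3 went from 87.1 and 90 reads to 983 and 971, and its log2 fold change was 3.24 ± 0.16 (adjusted p = 1.13e-88, authors' deposited table). PPP1R15A went from 354 and 328 to 2649 and 2485 reads, a log2 fold change of 2.84 ± 0.10 in the authors' deposited table (adjusted p = 1.22e-159). CHAC1 went from 38.1 and 43.2 to 151 and 140 reads (1.44 ± 0.26, authors' deposited table). ATF4 went from 1676 and 1749 to 3193 and 3233 reads (0.91 ± 0.08, authors' deposited table). In all 4 both libraries with arsenite were above both without, as they were for 29.3% of 16928 genes whose base mean reached 10. SESN2 (0.79 ± 0.17), ASNS (0.77 ± 0.28) and NUPR1 (0.62 ± 0.17) also rose in the authors' deposited table. The ASNS call was lost with no filter on low base means (adjusted p = 0.075).

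TRIB3 was not called. It had 279 and 262 reads without and 269 and 277 with arsenite, and its value was 0.03 ± 0.18 in the authors' deposited table (adjusted p = 0.959). CEBPB, at 412 and 505 against 506 and 443 reads, was not called either (0.06 ± 0.15, authors' deposited table). The 2 chains of the large neutral amino acid transporter moved in opposite directions: SLC7A5 fell from 6379 and 6603 to 4024 and 3661 reads (-0.73 ± 0.07), and SLC3A2 rose from 2476 and 2587 to 4006 and 3604 (0.59 ± 0.08), in the authors' deposited table. The other falls were SLC1A5 (-0.82 ± 0.09), VLDLR (-0.68 ± 0.14), SLC1A4 (-0.64 ± 0.10), the gluconeogenic enzyme PCK2 (-0.58 ± 0.15), SLC38A2 (-0.56 ± 0.07), SLC6A9 (-0.48 ± 0.13) and SLC7A1 (-0.36 ± 0.07), in the authors' deposited table.

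In cells with WT G3BP1, arsenite raised 10 and lowered 6 of 33 members tested, against 8.18% and 12.2% of all 13635 genes in the authors' deposited table. With the NTF2 deletion mutant, it raised 9 and lowered 3 of 31, against 2.43% and 6.14% of all 11578 genes in the authors' deposited table. These deposited fold changes had been shrunk toward 0 more strongly than those of the knockout, and the tests of differences below start from these values, so values with the shrinkage undone are given there where they move. DDIT3 had the highest value on both backgrounds, at 1.63 ± 0.09 and 1.38 ± 0.11, and PPP1R15A was at 0.83 ± 0.05 and 0.64 ± 0.06, in the authors' deposited tables. ATF4 was at 0.32 ± 0.04 and 0.30 ± 0.05, and DDIT4 at 0.55 ± 0.13 and 0.59 ± 0.14, in the authors' deposited tables. The order behind DDIT3 changed without shrinkage. In limma, CHAC1 was at 1.00 and PPP1R15A at 0.86 with WT G3BP1, and DDIT4 was at 1.12 and PPP1R15A at 0.67 with the mutant. CHAC1 and NUPR1 were called with WT G3BP1 (0.73 ± 0.16 and 0.58 ± 0.15) and not with the mutant (0.27 ± 0.14 and 0.20 ± 0.14), in the authors' deposited tables. TRIB3 was called on both, at 0.30 ± 0.07 and 0.31 ± 0.10 in the authors' deposited tables. SESN2 (0.35 ± 0.08 and 0.37 ± 0.12) and CEBPG, a dimer partner of other C/EBP factors (0.24 ± 0.08 and 0.32 ± 0.10), were called on both as well, in the authors' deposited tables. Leaving out 1 library in limma ended the calls of TRIB3 (0.26, adjusted p = 0.0911, without the library at 980 TRIB3 reads) and SESN2 (0.31, adjusted p = 0.0672, without the library at 336 SESN2 reads) with the mutant, and of CEBPG with WT G3BP1 (adjusted p of up to 0.0631). With no filter on low base means the calls of TRIB3 and SESN2 with the mutant were lost (adjusted p = 0.073 and 0.0683), as was that of SLC1A4 with WT G3BP1 (adjusted p = 0.055). Limma on the solved reads called 13 members higher and 6 lower with the mutant, against 4.99% and 7.93% of all genes. In limma, CHAC1 was called with the mutant at 0.58 (adjusted p = 0.0264) and ASNS with WT G3BP1 at 0.74 (adjusted p = 0.0172), where the deposited value of the authors was 0.45 ± 0.18 and not called. Without 1 library these limma calls were lost too, at adjusted p-values of up to 0.24 for CHAC1 (0.46, without the arsenite library at 128 CHAC1 reads) and 0.162 for ASNS (0.66, without the untreated library at 42.4 ASNS reads). Of the 8 transporters and export factors, 5 were lower and 0 higher with WT G3BP1, and 3 lower and 1 higher with the mutant. SLC7A5 was at -0.57 ± 0.03 and -0.44 ± 0.04 and SLC1A5 at -0.54 ± 0.04 and -0.35 ± 0.05 in the authors' deposited tables. PCK2 (-0.42 ± 0.09), SLC1A4 (-0.38 ± 0.13) and SLC6A9 (-0.36 ± 0.12) fell with WT G3BP1 in the authors' deposited table. Without 1 of the libraries, SLC6A9 on this background had adjusted p-values of up to 0.0807 (limma).

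For a few members the arsenite response differed between backgrounds. Between WT rescue and knockout, the test of the difference called 4 members with a smaller response and 1, SLC38A2, with a higher value in the rescue, of 33 tested, against 2.68% lower and 1.82% higher of all 15648 genes. PPP1R15A went from 2528 and 2467 to 4407 and 4697 reads in the rescue, and its log2 response was lower than in the knockout by -2.01 ± 0.11 (adjusted p = 1.36e-66). DDIT3 went from 327 and 316 to 1086 and 1070 reads, and its response differed by -1.61 ± 0.18 (adjusted p = 1.69e-16). ATF4 went from 3369 and 3321 to 4218 and 4245 reads, with a difference of -0.59 ± 0.09 (adjusted p = 1.76e-09). SLC3A2 went from 7072 and 7122 to 7538 and 7750 reads, with a difference of -0.51 ± 0.08 (adjusted p = 2.32e-07).

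SLC38A2 fell with arsenite in the knockout, from 6639 and 6401 to 4152 and 4548 reads. In the WT rescue it stood at 3306 and 3546 without and 3586 and 3576 with arsenite, a difference in response of 0.61 ± 0.08 (adjusted p = 2.55e-11). The members called with a smaller response in the rescue started higher there, and SLC38A2 started lower. TRIB3 and CEBPB also started higher there, with means of 758.9 and 1542.2 reads against 270.1 and 458.0 in the knockout. Their responses differed by 0.27 and 0.10, not called by this test. The part of the starting level was not tested. Limma on the solved reads called 6 members higher, among them SLC38A2, and 6 lower, against 6.53% and 4.43% of all genes. For TRIB3 (0.27 ± 0.19), CHAC1 (-0.71 ± 0.31) and ASNS (-0.32 ± 0.33) no difference was called.

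Between NTF2 deletion rescue and knockout, the test called 5 members lower and 3 higher of 33, against 3.08% and 4.04% of all 15442 genes. The values were -2.20 ± 0.12 for PPP1R15A, -1.86 ± 0.19 for DDIT3, -0.61 ± 0.09 for ATF4 and -0.47 ± 0.09 for SLC3A2. They were 0.73 ± 0.09 for SLC38A2, 0.47 ± 0.10 for SLC1A5 and 0.30 ± 0.08 for SLC7A5. CHAC1 was called at -1.17 ± 0.30 (adjusted p = 0.00257), but with the authors' shrinkage undone the adjusted p was 0.0786. In limma it was -1.26 ± 0.30 (adjusted p = 0.00193), and 7 members were called higher and 6 lower, against 8.19% and 5.73% of all genes. No difference was called for ASNS (-0.63 ± 0.31) or TRIB3 (0.28 ± 0.20). Reads of CHAC1 were 82 and 75.9 without and 109 and 128 with arsenite on this background.

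No difference in arsenite response was called between the rescues. No member passed the test of the difference, against 0.101% higher and 0.227% lower of all 15865 genes, with 4 members at an unadjusted p under 0.05, and limma called 0, against 0.024% and 0.108%, with 5 at an unadjusted p under 0.05. The difference was 0.02 ± 0.07 for ATF4, 0.25 ± 0.14 for DDIT3, 0.45 ± 0.21 for CHAC1, 0.31 ± 0.22 for ASNS and -0.01 ± 0.12 for TRIB3. With the shrinkage undone it was 0.01 ± 0.07 for ATF4, 0.06 ± 0.16 for DDIT3, 0.40 ± 0.37 for CHAC1, 0.33 ± 0.48 for ASNS and -0.05 ± 0.14 for TRIB3, and DDIT4 went from -0.04 ± 0.19 to -0.47 ± 0.30, none of them called.

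**Figure D4:**
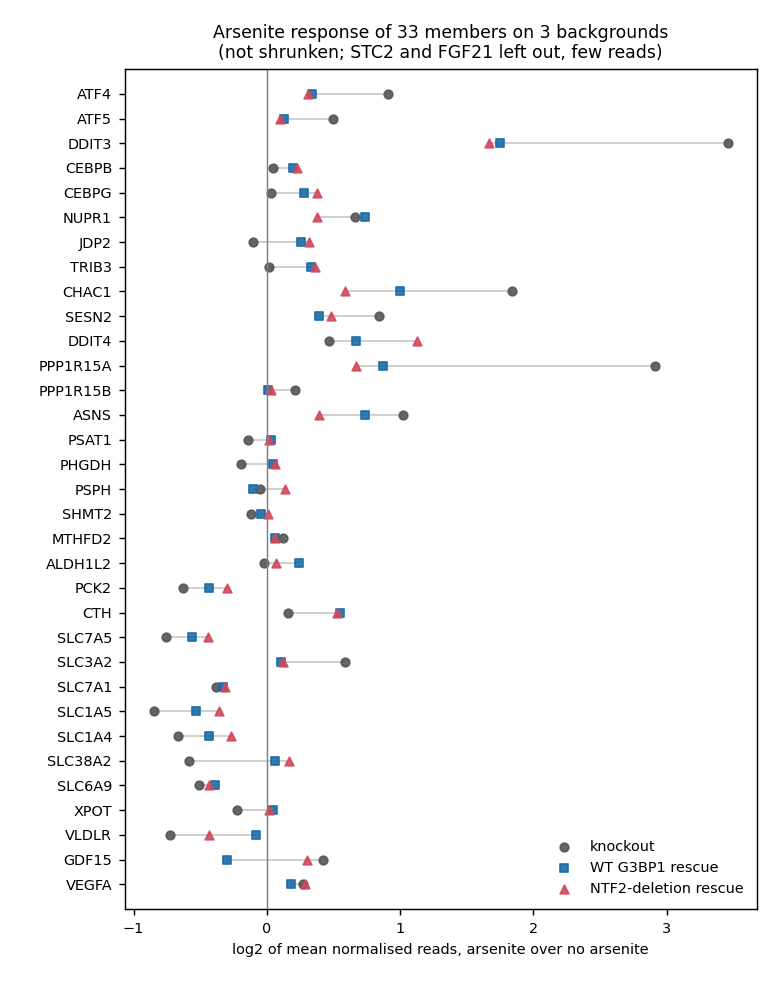
Log2 ratio of mean normalised reads with over without arsenite for 33 members, on the knockout, WT rescue and NTF2 deletion rescue backgrounds, from reads solved out of the base means and so without the authors' shrinkage. DDIT3 has the highest ratio on each background, and PPP1R15A and DDIT3 lie farther right for the knockout than for either rescue.

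Under arsenite, DDIT3 and CHAC1 were not called different between rescued and knockout cells. DDIT3 ended at 983 and 971 reads in knockout, 1086 and 1070 with WT G3BP1 and 894 and 896 with the mutant. Against the knockout with arsenite the differences were 0.38 ± 0.23 and 0.08 ± 0.23 (adjusted p = 0.165 and 0.822). CHAC1 ended at 151 and 140 reads in knockout, 152 and 139 with WT G3BP1 and 109 and 128 with the mutant (0.36 ± 0.40 and 0.03 ± 0.43). With the shrinkage undone, the values with WT G3BP1 were 0.20 ± 0.24 for DDIT3 and 0.06 ± 0.47 for CHAC1, and those with the mutant changed sign, to -0.10 ± 0.24 and -0.26 ± 0.49. In limma, DDIT3 with WT G3BP1 was called at 0.14 (adjusted p = 0.0328), and not without any 1 of the 4 libraries compared (adjusted p of up to 0.131).

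Other members still differed between rescued and knockout cells under arsenite. Of 33 tested with arsenite in both groups, 14 were higher and 7 lower with WT G3BP1 than in knockout cells, against 26.1% and 19.3% of all 16533 genes. With the mutant it was 12 and 7, against 24.3% and 19.2% of all 16248 genes. TRIB3 ended at 269 and 277 reads in knockout, 976 and 925 with WT G3BP1 and 980 and 847 with the mutant, differences of 1.83 ± 0.22 and 1.75 ± 0.23. ATF4 ended at 3193 and 3233 in knockout, 4218 and 4245 with WT G3BP1 and 4065 and 4245 with the mutant, differences of 0.46 ± 0.10 and 0.40 ± 0.10. CEBPB differed by 1.94 ± 0.19 and 1.78 ± 0.19, SLC7A5 by 1.89 ± 0.08 and 1.84 ± 0.08, SLC1A5 by 1.38 ± 0.11 and 1.49 ± 0.11, and XPOT by 1.23 ± 0.12 and 1.20 ± 0.12. VLDLR (-1.30 ± 0.21 and -1.68 ± 0.22), JDP2 (-1.27 ± 0.28 and -1.44 ± 0.28) NUPR1 (-0.99 ± 0.25 and -1.51 ± 0.28), SLC6A9 (-1.08 ± 0.19 and -1.06 ± 0.21) and SLC1A4 (-0.95 ± 0.14 and -0.94 ± 0.14) were lower. For ASNS the differences, -0.11 ± 0.45 and -0.33 ± 0.47, were not called, and were -0.33 ± 0.54 and -0.56 ± 0.57 with the shrinkage undone. Limma called the mutant's at -0.58 (adjusted p = 0.0105), but not without the arsenite library of the mutant at 57.3 ASNS reads (-0.41, adjusted p = 0.145) or that of the knockout at 107 (-0.44, adjusted p = 0.124). These comparisons use the untreated knockout libraries in both inputs, which makes their SE too large.

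The authors also compared arsenite-treated rescues with untreated knockout cells, which joins both changes. In these deposited tables of the authors, 19 of 35 members were higher and 6 lower with WT G3BP1, against 25.1% and 19.8% of all genes, and 18 and 8 of 34 with the mutant, against 23.3% and 19.6%. PPP1R15A reached 3.78 ± 0.09 and 3.33 ± 0.10, and DDIT3 3.62 ± 0.16 and 3.31 ± 0.17, in the authors' deposited tables. CEBPB (2.00 and 1.84), TRIB3 (1.86 and 1.77), CHAC1 (1.80 and 1.47), SESN2 (1.78 and 1.23), SLC3A2 (1.65 and 1.54) and ATF4 (1.37 and 1.31) followed in the authors' deposited tables. At the low end stood VLDLR (-1.99 and -2.36), SLC1A4 (-1.58 in both), SLC6A9 (-1.56 and -1.54) and JDP2 (-1.35 and -1.52), in the authors' deposited tables. ASNS was not called in either of the authors' deposited tables, and limma called it with WT G3BP1 (0.67, adjusted p = 0.00904) but not without the knockout library at 40.3 ASNS reads (0.43, adjusted p = 0.201) or the rescue library at 77.5 (0.61, adjusted p = 0.0526).

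**Figure D5:**
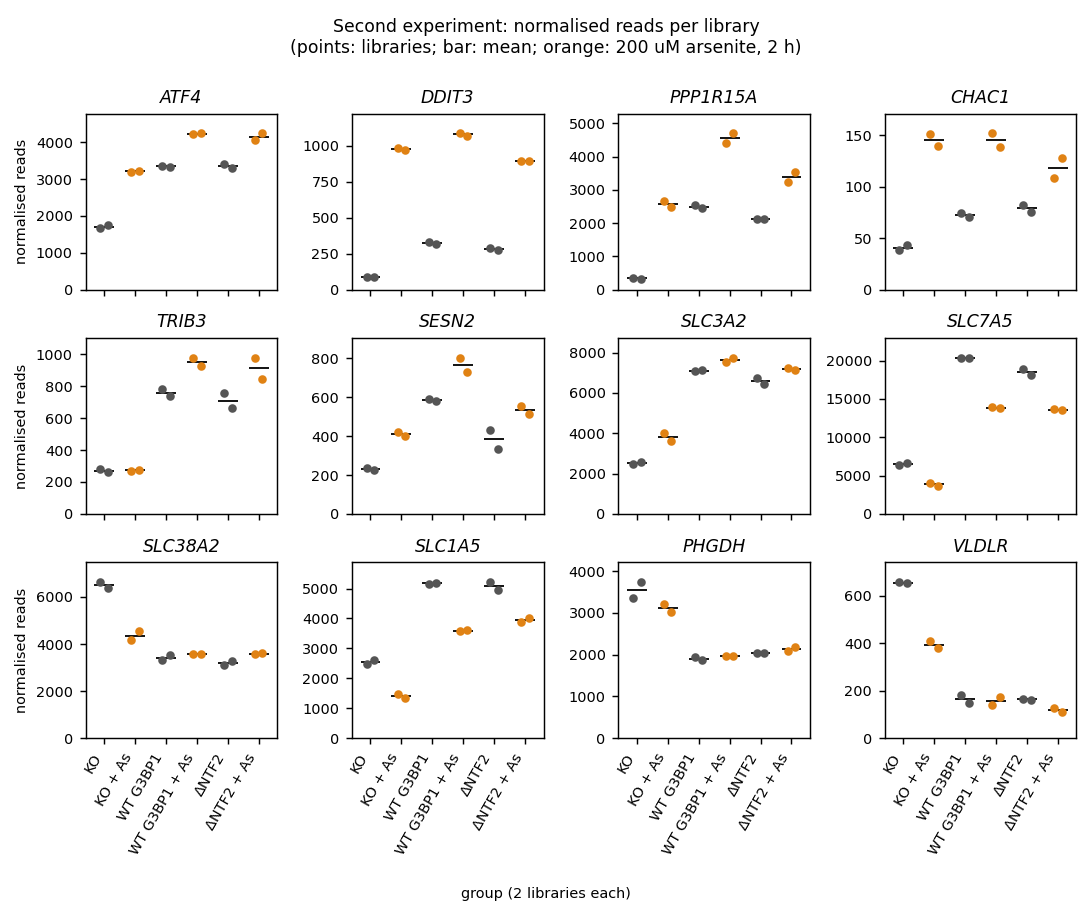
Normalised reads of 12 members in each library of the second experiment, for knockout cells (KO), knockout cells with WT G3BP1 and with the NTF2 deletion mutant (ΔNTF2), without (grey) and with arsenite (orange, + As), with bars for the mean of 2 libraries. Knockout cells without arsenite are lowest for DDIT3, PPP1R15A and ATF4, and SLC7A5 falls with arsenite on each background.

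The rest of the pathway was read from lists of genes that are not members, also chosen with earlier results of these data known. Of 24 further ATF4 targets, mostly aminoacyl-tRNA synthetases and stress genes, 20 were higher and 1 lower with WT G3BP1 in the authors' deposited table, and 20 and 2 with the mutant. Of all genes, 23.0% were higher and 19.1% lower with WT G3BP1 and 22.8% and 18.7% with the mutant. Knockout against wild type gave 5 higher and 12 lower of these 24 in the authors' deposited table, against 18.4% and 19.4% of all genes. Arsenite in knockout cells gave 4 higher and 5 lower of the same 24 in the authors' deposited table, against 8.56% and 10.9% of all genes. Of 17 upstream genes, the eIF2 kinases, eIF2 and eIF2B subunits and their regulators, 11 were higher and 3 lower with WT G3BP1 and 11 and 2 with the mutant in the authors' deposited tables, beside the same shares of all genes for these rescues. In RIP, 11 of the 17 upstream genes were higher and 5 lower in the IP, and 11 and 9 of the 24 further targets, in the authors' deposited table. Of all genes tested in RIP 24.7% were higher and 31.4% lower, and the share of the further targets that were lower, 37.5%, was near the latter.

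A few members gave little to read. STC2, a secreted glycoprotein, had at most 23.8 normalised reads in any U2OS library and FGF21 at most 13.2, and no adjusted p was given for STC2 in 7 and for FGF21 in 3 of the authors' 11 deposited tables. FGF21 was called in 1 RNA-seq table only, lower with the arsenite-treated mutant than in untreated knockout cells (-1.65 ± 0.64, authors' deposited table). By RefSeq, 15 of the 35 members overlap another annotated gene, among them DDIT3, MTHFD2 and VLDLR. The libraries preserve the strand, but whether the counting used it is not given in the sources used here, so reads of overlapping genes may be mixed.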

How the data were processed

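Per the labels' protocols, poly-A RNA went into directional libraries. STAR and DESeq2 are named in the submitters' processing notes, and the genome build is not given in the sources used here. The authors deposited 11 tables of comparisons of 24 libraries, and 48 other libraries are not analysed here. Each table lists 61541 genes and 4 summary lines, which were left out. The deposited base mean is a signal, normalised reads averaged over both groups. The deposited log2 fold change, shrunk toward 0 by the authors with a prior width of 0.278 to 2.055 as worked out here, comes with its SE. The Wald statistic is a score deposited by the authors. The deposited p-value and adjusted p-value are the authors' own, called under 0.05.

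Whole reads per library were solved from the base means of tables that share libraries, for 100.0% of 38466 genes with reads in the first and 38909 in the second experiment, each base mean met within a relative 1e-12. RIP reads were not solved. Solved reads show values per library, named in no order. They were refitted with limma 3.58.1 (voom, R 4.3.3) over genes with a mean of at least 10, as an alternative. Differences between tables were divided by the root of the summed squared SEs, given a two-sided normal p, and corrected by Benjamini-Hochberg over genes with base means of at least 10. Scripts ran in Python 3.11.15 and were tested on simulated data.

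Members and lists were chosen with earlier results of these data known. Named in each comparison were ATF4, DDIT3, ASNS, CHAC1, TRIB3 and the 5 highest and 5 lowest called members; other members are given as values. Genes named from limma for the unstressed rescues were chosen after their values were seen. Alternatives were median centring, filters on base means, undone shrinkage, limma and leaving out each library.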

Additional observations from a re-analysis of the deposited data

Results flagged for a closer look

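The arsenite response of 5 members differed between the WT G3BP1 rescue and the knockout by the test of the difference, in log2 units: ATF4 by -0.59, DDIT3 by -1.61, SLC3A2 by -0.51, PPP1R15A by -2.01 and SLC38A2 by 0.61. Between the NTF2 deletion rescue and the knockout it differed for 8: ATF4 by -0.61, DDIT3 by -1.86, CHAC1 by -1.17, SLC3A2 by -0.47, PPP1R15A by -2.20, SLC7A5 by 0.30, SLC1A5 by 0.47 and SLC38A2 by 0.73. With the authors' shrinkage undone, CHAC1 was at -1.26 ± 0.45 and no longer called by this test.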

How the results depend on the processing

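Of 286 alternative counts of members called, 262 stayed within 1.5 times the reported count and 24 moved. For NTF2 deletion rescue with against without arsenite, the members higher went from 9 to 5 with no filter on low base means, and the members lower from 3 to 6 in limma. For the arsenite response of WT rescue minus knockout, the members higher went from 1 to 3 at a base mean of at least 100 and to 6 in limma. For NTF2 deletion rescue minus knockout they went from 3 to 7 in limma, and for the unstressed rescues from 0 to 4. Leaving out each library, in limma, gave 2 to 6, 4 to 6 and 1 to 2 members higher for these 3 differences, and the causes were not tested. The signs that turned, for values not called in the reported tests, were these: with median centring, ASNS for NTF2 deletion rescue against knockout (-0.10), ATF4 between the unstressed rescues (0.00) and, for NTF2 deletion rescue minus knockout with arsenite, DDIT3 (-0.08; -0.10 with shrinkage undone, -0.13 in limma) and CHAC1 (-0.13; -0.26 and -0.30). Leaving out libraries turned DDIT3 (-0.28 to 0.11), ASNS (-0.63 to 0.03) and TRIB3 (0.05) for knockout against wild type, CHAC1 for knockout against rescue (-0.27 to 0.01), ASNS for WT rescue (-0.31 to 0.15) and NTF2 deletion rescue (-0.17 to 0.29) against knockout, TRIB3 for arsenite in knockout cells (-0.03 to 0.06) and between the rescues' responses (0.00 to 0.07), ATF4 between the unstressed rescues (0.01 to 0.02), CHAC1 for WT rescue minus knockout with arsenite (-0.07 to -0.05), and DDIT3 (-0.14 to -0.12) and CHAC1 (-0.41 to -0.18) for the mutant. No paired analysis was possible because the deposited tables hold no values by replicate and the solved libraries carry no replicate number. With 2 libraries a group, small differences may be missed, and CHAC1, ASNS and GDF15, with few reads in the second experiment, have wide errors.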
